A study of Mus musculus with 17 samples.

Results

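Cortex of mice with a deletion of Tsc1 was compared with control cortex at 15 weeks of age, over 7 of the 17 libraries of the series. These were the 4 libraries titled as 15-week Tsc1CKO and the 3 titled as 15-week Control, chosen by their titles and fitted by themselves. The knockout mice carried a Cre recombinase driven by the mouse Gfap promoter (mGfapCre+) and the conditional allele Tsc1CKO. Controls were littermates that also carried mGFAPCre+, so both groups had the recombinase; the Tsc1 allele of the controls is not given in the sources used here. All mice were on a mixed Bl6 and 129S background. RNA came from somatosensory and parietal cortex, of which the upper part was taken from coronal sections and flash frozen. The remaining 10 libraries, 5 Tsc1CKO and 5 Control at 4 weeks, were used only to compare the genotype effect between ages. Which cells had recombined was not measured in these libraries, and the labels do not say whether each library was a separate animal. The p-values below therefore measure the spread between libraries, which may be technical.

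Tsc1 encodes hamartin, which forms a complex with tuberin, the product of Tsc2, and restrains the small GTPase Rheb and through it the growth-promoting kinase complex mTORC1. The mouse Gfap promoter is active in astrocytes and in neural progenitors that can give rise to neurons. Astrocytes clear glutamate and potassium from around synapses, share ions through gap junctions, and answer injury or seizures with a change of gene expression called reactive gliosis.

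Between 16680450 and 20508464 reads were counted per library, and between 17439 and 18168 genes had at least 1 read. Genes of the upper cortical layers were detected, but so were deep-layer genes. Tbr1, a transcription factor of deep-layer pyramidal cells, lay at 52.1 to 176 CPM. The T cell gene Cd3e was at or near 0 in all 7 libraries, at 0 to 0.175 CPM, and the choroid plexus gene Folr1 at 0.0551 to 0.484 CPM. Over 10 choroid plexus genes the summed level was higher, at 10.4 to 14.2 CPM in controls and 8.99 to 26.6 CPM in Tsc1CKO. Over the 4 of them tested, the mean of Tsc1CKO 1 to 4 lay 0.78, 0.26, 0.23 and -0.41 log2 units from the control mean. Tsc1CKO 4 stood apart from the other 3 knockout libraries. On the first principal component of the 500 most variable genes, which held 78.4% of their variance, Tsc1CKO 1 to 3 lay at -33.17, -38.3 and -29.22. Tsc1CKO 4 lay at 17.57, beside the controls at 27.31 to 28.22. Counts over gene lists are therefore also given without Tsc1CKO 4, or as the range with each library left out in turn. Tsc1CKO 2 also held pituitary hormone transcripts, and Tsc1CKO 3 had low immediate early genes; both are described near the end. Throughout, CPM are counts scaled to library size with TMM factors, given in the order of Tsc1CKO 1 to 4 and Control 1 to 3, and log2 fold changes are given ± SE.

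The transcript of the targeted gene was examined first. Tsc1 (mm9 chr2:28496748-28546687, plus strand, protein coding) was counted at 94.3, 79, 128 and 104 CPM in Tsc1CKO and 109, 113 and 127 CPM in controls. Tsc1CKO 1, 2 and 4 lay below every control and Tsc1CKO 3 just above the highest. The difference did not pass the test (log2 fold change -0.20 ± 0.16, edgeR adjusted p = 0.45). A two-sided exact permutation test of log2 CPM over all 35 arrangements gave p = 0.257 for 4 against 3 libraries, where the smallest possible p is 0.0286. Tsc2 (mm9 chr17:24732882-24769574, minus strand, protein coding) was counted at 114, 96.2, 137 and 118 CPM in Tsc1CKO and 113, 106 and 106 CPM in controls, with groups that overlapped (log2 fold change 0.10 ± 0.13, edgeR adjusted p = 0.65) and an exact permutation p of 0.514. The counts cover the whole Tsc1 gene in whole tissue, so they check neither the deletion nor the labels. Of 30 genes of the TSC complex and mTOR pathway, 2 rose and 1 fell, where 3.36% of all genes tested rose and 0.42% fell. Without Tsc1CKO 4, 3 of the 30 were higher and 2 lower, where 13.4% and 9.8% of all genes tested were. With all 7 libraries, the pathway genes that rose were Ddit4 (0.99 ± 0.18) and Sesn2 (0.96 ± 0.20), both stress-induced inhibitors of mTORC1, with edgeR adjusted p of 0.028 and 0.039. The gene that fell was Ddit4l (log2 fold change -1.21 ± 0.20, edgeR adjusted p = 0.022), a relative of Ddit4 with the same activity.

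Across all 15015 genes tested, 504 were higher in Tsc1CKO, which is 3.36%, and 63 were lower, which is 0.42% (edgeR quasi-likelihood test, adjusted p under 0.05). Without Tsc1CKO 4, 1997 of 14929 genes were higher (13.4%) and 1463 were lower (9.8%). That fit held 565 of the 567 genes called with all 7 libraries. The counts also turned on the other libraries. Leaving out Control 1, 2 or 3 left 42, 39 and 47 genes higher and 0, 0 and 1 lower. Leaving out Tsc1CKO 1, 2 or 3 left 115, 413 and 284 higher and 0, 83 and 8 lower. Of the 141 genes named here that were called, 14, 14 and 15 kept their call without Control 1, 2 or 3, 34, 98 and 76 without Tsc1CKO 1, 2 or 3, and 141 without Tsc1CKO 4. In 1869 genes (12.4%) every knockout library lay above every control, and in 1626 (10.8%) every one lay below. Higher genes made up 88.9% of the calls with edgeR and 65.6% with DESeq2, which called 1388 higher and 728 lower. The median log2 fold change of all genes tested was 0.02. Counts of list members below, with all 7 libraries or without Tsc1CKO 4, are to be read beside the shares given here.

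Under the main test and all 16 alternatives of filter, scaling, tool and left-out library, 33 genes were called, all of them higher. They included Gfap, Osmr, Sparc, Gjb6, Clu, Cpe, Prdx6, Plin3, Col16a1, Ggta1, Gpx3, Rnase1 and Rtp1, which are described below; these 13 are the ones that the rule for named genes also chose.

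**Figure D1:**
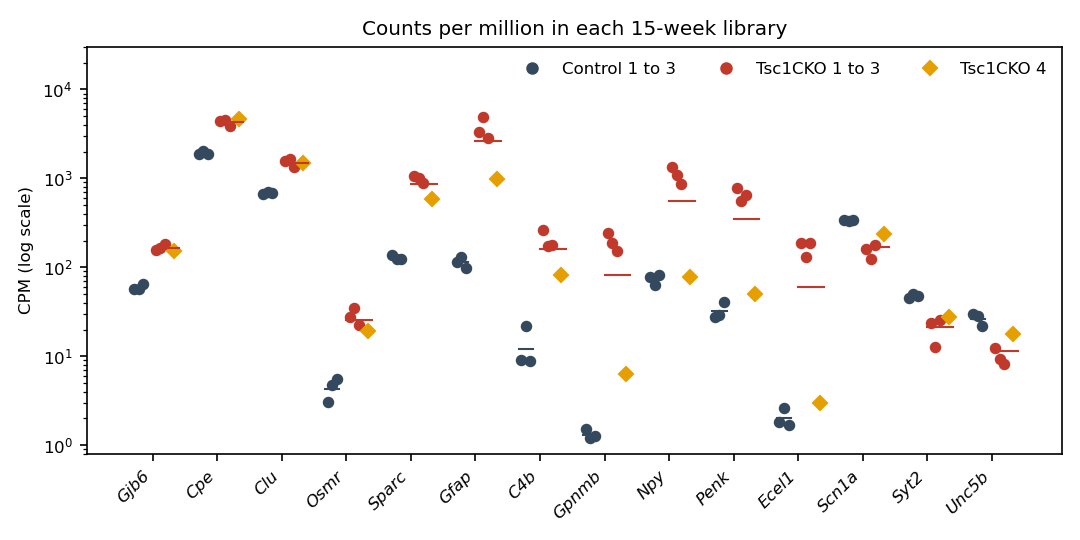
CPM of 14 genes (log scale) in each 15-week library: black points are Control 1 to 3, red points Tsc1CKO 1 to 3, orange diamonds Tsc1CKO 4, and lines the geometric mean of each group. Gjb6, Cpe and Clu are as high in Tsc1CKO 4 as in the other knockout libraries, while Npy, Penk and Ecel1 are near the controls there.

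Genes by which astrocytes take up glutamate, potassium and water and couple to each other included many that rose, with list means above the controls in all 4 knockout libraries. Of 25 such genes, all tested, 11 rose and 0 fell, with a median log2 fold change of 0.54, against 0.02 over all genes tested. Gjb6, the gap junction protein connexin 30, was counted at 157, 166, 184 and 153 CPM in Tsc1CKO and 57.2, 56.5 and 65.7 CPM in controls. Gjb6 rose 2.76-fold with no overlap, and Tsc1CKO 4 was among the rest (log2 fold change 1.47 ± 0.12, edgeR adjusted p = 0.0019). Kcnj10, the potassium channel Kir4.1, was counted at 788, 584, 695 and 514 CPM in Tsc1CKO and 325, 298 and 309 CPM in controls. Kcnj10 rose too, with its lowest knockout value in Tsc1CKO 4 (log2 fold change 1.05 ± 0.16, edgeR adjusted p = 0.016). Aqp4, the water channel of astrocyte endfeet, was at 304, 385, 219.6 and 278 CPM in Tsc1CKO and 137, 133 and 145 CPM in controls, again without overlap (log2 fold change 1.10 ± 0.18, edgeR adjusted p = 0.022). In whole tissue, a change in the number of cells of a type and a change in RNA per cell cannot be told apart.

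Other astrocyte genes that rose were Aldoc, the brain form of aldolase (1.18 ± 0.15), the folate enzyme Aldh1l1 (0.97 ± 0.14), Mlc1, a membrane protein of endfeet (0.81 ± 0.14), and the glutamate transporter Slc1a3 (0.66 ± 0.12). These are log2 fold changes, with edgeR adjusted p of 0.0069 to 0.031. Sox9, a transcription factor of astrocytes, rose as well (log2 fold change 0.76 ± 0.17, edgeR adjusted p = 0.0475). The most abundant astrocyte transporter did not pass the test. Slc1a2, the glutamate transporter GLT-1, was counted at 5555, 4659, 5615 and 7197 CPM in Tsc1CKO and 4509.8, 5477 and 4721 CPM in controls, with overlapping groups (log2 fold change 0.23 ± 0.16, edgeR adjusted p = 0.39). Gja1, connexin 43, was likewise not called at 254, 216, 306 and 323 CPM in Tsc1CKO and 256, 257 and 226 CPM in controls (log2 fold change 0.16 ± 0.16, edgeR adjusted p = 0.55). Glul, glutamine synthetase, did not overlap between groups but missed the threshold (log2 fold change 0.54 ± 0.13, edgeR adjusted p = 0.057). As a mean over the list, Tsc1CKO 1 to 4 lay 0.57, 0.59, 0.38 and 0.66 log2 units above the control mean, so Tsc1CKO 4 was the highest of the 4. Without Tsc1CKO 4, 12 members rose and 2 fell, and with each library left out in turn between 1 and 12 rose.

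Reactive astrocyte genes rose by more, and unevenly between libraries. Of 13 genes shared by reactive astrocytes after different injuries, 6 rose and 0 fell, with a median log2 fold change of 2.55. Gfap, the intermediate filament protein of astrocytes, was counted at 3363, 4860.4, 2869 and 985 CPM in Tsc1CKO and 114, 129 and 99.3 CPM in controls. Gfap in Tsc1CKO 4 was several-fold above every control and well below the other knockout libraries (log2 fold change 4.72 ± 0.52, edgeR adjusted p = 0.0045). Without Tsc1CKO 4 its log2 fold change was 5.02 ± 0.23. Vim, another filament gene, was at 152, 195, 191 and 67.1 CPM in Tsc1CKO and 27.6, 26.4 and 32.1 CPM in controls and showed the same order (log2 fold change 2.40 ± 0.34, edgeR adjusted p = 0.013). Serpina3n, a secreted protease inhibitor, was at 507, 479.5, 669 and 188 CPM in Tsc1CKO and 59.96, 50.4 and 48.6 CPM in controls, again with Tsc1CKO 4 between the groups (log2 fold change 3.12 ± 0.39, edgeR adjusted p = 0.0076).

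Cd44, a receptor for hyaluronan, was at 37.6, 80.6, 32.9 and 5.75 CPM in Tsc1CKO and 2.79, 3.01 and 2.59 CPM in controls, and in Tsc1CKO 4 was closer to the controls than to the other knockout libraries (log2 fold change 3.81 ± 0.76, edgeR adjusted p = 0.036). Aspg, an asparaginase, also rose (log2 fold change 3.76 ± 0.50, edgeR adjusted p = 0.0093). Cxcl10, a chemokine (5.20 ± 1.34), and Timp1, a metalloproteinase inhibitor (2.37 ± 0.73), missed the threshold, with edgeR adjusted p of 0.063 and 0.092. Of genes reported for reactive astrocytes after inflammation, 4 of 11 tested rose, and of those reported after ischemia 2 of 10. Without Tsc1CKO 4 these were 8 and 5. The genes of inflammation were the galactosyltransferase Ggta1 (3.25 ± 0.27), the elastic fiber protein Fbln5 (3.10 ± 0.47), the adhesion protein Amigo2 (1.61 ± 0.25) and Serping1, the inhibitor of complement C1 (1.49 ± 0.32), as log2 fold changes with edgeR adjusted p of 0.0019 to 0.042. Those of ischemia were Stat3 and Cd109. Cd109, a membrane protein that binds TGF-beta, stood at an edgeR adjusted p of 0.0498 with a log2 fold change of 2.97 ± 0.68. With each library left out in turn, between 2 and 9 of the shared genes were called, and 9 without Tsc1CKO 4.

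Cytokines of the interleukin 6 family act through the receptor gp130 and the transcription factor Stat3, a pathway known to raise Gfap in astrocytes. Of 7 ligands only Lif and Ctf1 had enough reads to be tested, and both rose. Lif, leukemia inhibitory factor, was counted at 3.96, 9.91, 2.01 and 2.45 CPM in Tsc1CKO and 0.557, 0.467 and 0.606 CPM in controls (log2 fold change 3.06 ± 0.62, edgeR adjusted p = 0.038). Ctf1, cardiotrophin 1, was at 3.29, 3.62, 2.44 and 3.12 CPM in Tsc1CKO and 1.28, 0.831 and 1.32 CPM in controls (log2 fold change 1.44 ± 0.27, edgeR adjusted p = 0.031), with Tsc1CKO 4 as high as the others. Osm, oncostatin M, lay at 0.0543 to 0.435 CPM and Il6 at 0 to 0.156 CPM. Among 14 receptors, kinases and inhibitors, Osmr and Stat3 rose. Osmr, the receptor subunit for oncostatin M, was at 27.6, 35.2, 22.2 and 19.3 CPM in Tsc1CKO and 3.07, 4.72 and 5.57 CPM in controls, with no overlap and Tsc1CKO 4 close to Tsc1CKO 3 (log2 fold change 2.55 ± 0.27, edgeR adjusted p = 0.0041). Stat3 was at 122, 148, 99.4 and 78.2 CPM in Tsc1CKO and 46.3, 47 and 53.7 CPM in controls (log2 fold change 1.19 ± 0.21, edgeR adjusted p = 0.025). The gp130 gene Il6st (log2 fold change 0.20 ± 0.11, edgeR adjusted p = 0.26) and the feedback inhibitor Socs3 (log2 fold change 0.65 ± 0.44, edgeR adjusted p = 0.37) did not pass.

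Promoter sequence is given for Gfap and for the 3 named genes with the largest rises whose promoter holds the core of a STAT site. The letters searched were TTCNNNGAA, which reads the same on both strands, in the 250 bases before and 50 after the RefSeq start of each gene (GRCm38.p6). The match is in capitals, and each sequence runs 5′ to 3′ on the strand of its gene. Gfap (chr11:102897151-102897450, minus strand) holds it across the start site, beginning 2 bases before. Rnase1 (chr14:51146718-51147017, minus strand) holds it 56 bases before the start, Prss56 (chr1:87183064-87183363, plus strand) 152 before and Nupr1 (chr7:126625421-126625720, minus strand) 128 before.
Gfap: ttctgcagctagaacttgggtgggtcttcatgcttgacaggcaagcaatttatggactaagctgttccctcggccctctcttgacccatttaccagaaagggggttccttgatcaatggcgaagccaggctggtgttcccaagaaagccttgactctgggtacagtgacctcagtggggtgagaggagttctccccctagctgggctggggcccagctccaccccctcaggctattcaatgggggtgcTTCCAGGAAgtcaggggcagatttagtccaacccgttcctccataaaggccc
Rnase1: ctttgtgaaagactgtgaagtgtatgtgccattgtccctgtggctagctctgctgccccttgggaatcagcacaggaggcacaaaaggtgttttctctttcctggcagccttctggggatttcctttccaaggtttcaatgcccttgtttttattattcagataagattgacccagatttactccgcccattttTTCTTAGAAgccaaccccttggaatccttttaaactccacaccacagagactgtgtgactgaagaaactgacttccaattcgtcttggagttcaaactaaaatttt
Prss56: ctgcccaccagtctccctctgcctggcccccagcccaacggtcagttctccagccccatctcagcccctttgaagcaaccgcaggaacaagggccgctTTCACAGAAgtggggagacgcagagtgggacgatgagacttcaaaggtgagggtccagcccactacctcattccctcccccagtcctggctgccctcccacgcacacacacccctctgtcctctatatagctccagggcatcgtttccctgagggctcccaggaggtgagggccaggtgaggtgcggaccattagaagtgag
Nupr1: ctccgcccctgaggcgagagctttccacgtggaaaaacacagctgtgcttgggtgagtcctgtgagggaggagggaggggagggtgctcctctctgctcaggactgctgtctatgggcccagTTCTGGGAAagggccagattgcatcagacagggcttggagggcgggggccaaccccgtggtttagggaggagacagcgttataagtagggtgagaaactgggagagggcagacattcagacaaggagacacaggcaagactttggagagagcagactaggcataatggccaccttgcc
These letters were in 8.3% of all 32851 promoters of that length. Counted by gene, with a match in any of its promoters, they were in 8.36% of the 10608 tested genes with a promoter. They were in 37 of 381 genes called higher (9.71%), counted in the same way. A match is a description of the letters, not evidence that Stat3 binds there.

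The AP-1 core TGANTCA, bound by Jun and Fos family proteins, is shown for the 3 named genes with the largest rises that hold it. Capitals mark it, on either strand. Sprr1a (chr3:92485832-92486131, minus strand) holds 2 matches, 146 and 116 bases before the start, Mmp12 (chr9:7347124-7347423, plus strand) 1 match 44 bases before, and Gpnmb (chr6:49036268-49036567, plus strand) 1 match 8 bases after. Another Mmp12 promoter, chr9:7344147-7344446, holds none.
Sprr1a: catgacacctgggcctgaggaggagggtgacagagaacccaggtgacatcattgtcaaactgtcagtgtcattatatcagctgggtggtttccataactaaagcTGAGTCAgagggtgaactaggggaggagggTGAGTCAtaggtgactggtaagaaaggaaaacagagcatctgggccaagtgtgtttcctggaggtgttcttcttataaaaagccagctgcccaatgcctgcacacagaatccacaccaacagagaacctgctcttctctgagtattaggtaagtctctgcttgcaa
Mmp12: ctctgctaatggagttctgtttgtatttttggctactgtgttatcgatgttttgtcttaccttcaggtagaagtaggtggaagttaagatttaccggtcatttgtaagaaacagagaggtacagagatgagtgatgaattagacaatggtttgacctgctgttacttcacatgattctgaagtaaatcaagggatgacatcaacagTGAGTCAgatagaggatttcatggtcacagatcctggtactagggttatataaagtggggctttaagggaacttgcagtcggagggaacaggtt
Gpnmb: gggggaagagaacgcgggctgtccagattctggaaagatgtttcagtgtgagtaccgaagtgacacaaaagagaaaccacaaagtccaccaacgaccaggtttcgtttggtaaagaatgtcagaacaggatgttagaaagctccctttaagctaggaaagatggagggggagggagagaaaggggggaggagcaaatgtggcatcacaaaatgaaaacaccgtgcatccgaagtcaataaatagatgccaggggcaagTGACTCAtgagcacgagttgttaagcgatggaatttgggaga
AP-1 letters were in 7.81% of all promoters. Counted by gene, with a match in any of its promoters, they were in 6.44% of tested genes and 37 of 381 genes called higher (9.71%). Of the other elements searched, counted by gene, the E-box CACGTG was in 11.4% of tested genes and in 14.2% of genes called higher. The CRE letters TGACGTCA were in 3.41% and 1.31%, the broad kappa B pattern, GGG and CC with 5 bases of any kind between them, in 71.5% and 74.5%, and the ATF4 letters TGATGNAA in 2.77% and 3.67%. No test was made of these shares.

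Some genes of the extracellular matrix rose. Sparc, a collagen-binding glycoprotein secreted by glia, was counted at 1057, 1003, 880.3 and 582 CPM in Tsc1CKO and 137, 123 and 125 CPM in controls. Every knockout library of Sparc was over 4 times the highest control, with Tsc1CKO 4 lowest of the 4 (log2 fold change 2.78 ± 0.22, edgeR adjusted p = 0.0019). Thbs4, a thrombospondin, was at 59.8, 36.5, 89.95 and 27.2 CPM in Tsc1CKO and 6.02, 6.07 and 0.992 CPM in controls. Thbs4 had its lowest knockout value in Tsc1CKO 4 (log2 fold change 3.61 ± 0.62, edgeR adjusted p = 0.023), as did Spp1, osteopontin (log2 fold change 1.79 ± 0.35, edgeR adjusted p = 0.036). These 3 were the called members of 14 matricellular genes, whose median log2 fold change was 0.11, with 4 higher and 1 lower without Tsc1CKO 4. Sparcl1, the relative of Sparc that astrocytes express at a high level, did not pass (log2 fold change 0.29 ± 0.14, edgeR adjusted p = 0.22).

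Of 27 collagens and laminins, 3 rose, with edgeR adjusted p of 0.0039 to 0.036. They were Col16a1 (1.70 ± 0.17), Col11a1 (0.88 ± 0.17) and Col18a1, the source of endostatin (2.00 ± 0.40). Their list median was 0.45, 23 of the 27 had a positive fold change, and 7 were called higher and 0 lower without Tsc1CKO 4. The vascular collagens Col4a1 and Col4a2 were not called, at 1.03 and 1.06 with edgeR adjusted p of 0.095 and 0.093. None of 13 perineuronal net genes passed with edgeR, against 3 higher and 0 lower without Tsc1CKO 4. Of these, Tnc, tenascin C, was at 21.4, 24.6, 17.7 and 2.69 CPM in Tsc1CKO and 3.62, 4.36 and 2.98 CPM in controls, and was high in Tsc1CKO 1 to 3 only (log2 fold change 2.18 ± 0.61, edgeR adjusted p = 0.076; without Tsc1CKO 4, 2.53 ± 0.20, edgeR adjusted p = 0.00017). Brevican (Bcan) and neurocan (Ncan) had log2 fold changes of 0.01 ± 0.20 and 0.14 ± 0.16.

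Among 21 metalloproteinases and inhibitors, 4 rose. Timp4 was even over the knockout libraries, at 32.3, 32.3, 33.1 and 32.4 CPM in Tsc1CKO and 23.5, 22.3 and 21.1 CPM in controls (log2 fold change 0.54 ± 0.10, edgeR adjusted p = 0.029), followed by Timp3 (0.85 ± 0.14) and the protease Mmp19 (2.76 ± 0.47; edgeR adjusted p of 0.019 and 0.023). Mmp12, macrophage elastase, was at 7.16, 7.12 and 13 CPM in Tsc1CKO 1 to 3 and 0 in Tsc1CKO 4, with a single read over all controls, a ratio of 390.1 (95% counting interval 69.7 to 15439), which covers counting error only. Its edgeR adjusted p was 0.0484. The calcium-binding S100 proteins rose in 4 of 9 genes tested, with a median of 1.17. S100b, an astrocyte marker, was at 247, 326, 166 and 231 CPM in Tsc1CKO and 113, 97 and 113 CPM in controls (log2 fold change 1.17 ± 0.21, edgeR adjusted p = 0.029). S100a6 was raised less in Tsc1CKO 4, at 63.6, 74.5, 55.7 and 22 CPM in Tsc1CKO and 14.4, 12.1 and 15.6 CPM in controls (log2 fold change 1.94 ± 0.37, edgeR adjusted p = 0.032). S100a13 (1.09 ± 0.22) and S100a1 (1.09 ± 0.24) also rose. Of 8 annexins, only Anxa4 was called (log2 fold change 1.41 ± 0.24, edgeR adjusted p = 0.023), against 4 without Tsc1CKO 4. The range of calls with each library left out was between 1 and 7 for collagens and laminins, between 1 and 4 for matricellular genes, between 0 and 7 for metalloproteinases and inhibitors and between 0 and 7 for S100 proteins.

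**Figure D2:**
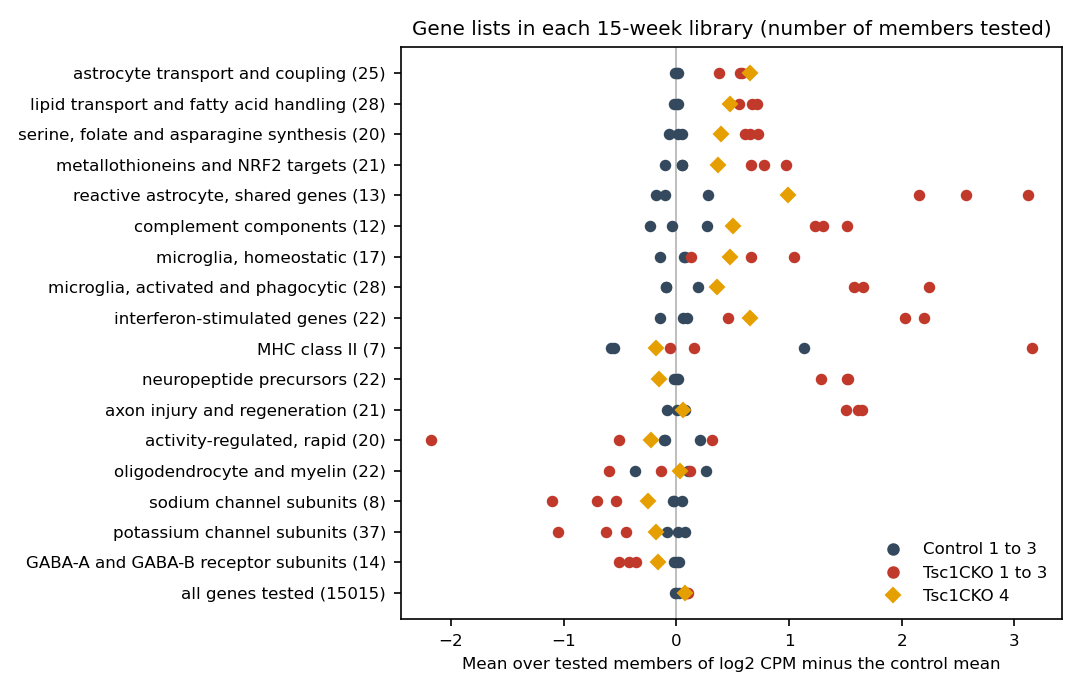
Mean over tested members of log2 CPM minus the control mean, for 17 gene lists and all genes tested; the number of members tested stands in parentheses, black points are Control 1 to 3, red points Tsc1CKO 1 to 3 and orange diamonds Tsc1CKO 4. Tsc1CKO 4 lies with the other knockout libraries for astrocyte transport and coupling, and near 0 for neuropeptides and axon injury genes.

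Genes of activated microglia, the resident phagocytes of the brain, rose in part, with higher list means in Tsc1CKO 1 to 3 than in Tsc1CKO 4. Of 28 activated and phagocytic genes tested, 10 rose and 0 fell, with a median of 1.16. Of 17 homeostatic genes, 2 rose, with a median of 0.60 and 7 called higher without Tsc1CKO 4. Gpnmb, a glycoprotein of phagocytic cells, was counted at 240.2, 188, 152 and 6.3 CPM in Tsc1CKO and 1.5, 1.19 and 1.27 CPM in controls. Gpnmb in Tsc1CKO 4 was above every control but more than 20 times below the other knockout libraries (log2 fold change 6.79 ± 1.16, edgeR adjusted p = 0.023). Lgals3, galectin 3, was at 12.8, 13.4, 12.7 and 0.795 CPM in Tsc1CKO and 0.334, 0.675 and 0.331 CPM in controls and had the same order (log2 fold change 4.45 ± 0.90, edgeR adjusted p = 0.038). Apoe, the lipid carrier of astrocytes and microglia, was at 1993, 2425, 1886 and 1917 CPM in Tsc1CKO and 916, 906 and 1044 CPM in controls and was even over the knockout libraries (log2 fold change 1.11 ± 0.14, edgeR adjusted p = 0.0069).

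Other activated genes that rose were the tetraspanin Cd63 (2.24 ± 0.34), the receptor Axl (0.81 ± 0.12) and the cathepsin Ctsz (0.86 ± 0.17), with edgeR adjusted p of 0.014 to 0.035. Among homeostatic genes the growth factor receptor Csf1r, at 193, 177, 142 and 133 CPM in Tsc1CKO and 93.2, 98.6 and 91.1 CPM in controls (log2 fold change 0.77 ± 0.15, edgeR adjusted p = 0.034), and the lipid receptor Trem2 (log2 fold change 1.24 ± 0.28, edgeR adjusted p = 0.0478) rose. P2ry12, a purine receptor of resting microglia, did not pass, with 71.1, 73.3, 35 and 66.9 CPM in Tsc1CKO and 54.3, 50.1 and 38.8 CPM in controls (log2 fold change 0.37 ± 0.25, edgeR adjusted p = 0.37). Lpl (-0.15 ± 0.14) and Igf1 (0.23 ± 0.13), both raised in microglia in other settings, did not pass either. As a mean over the activated list, Tsc1CKO 1 to 4 were 1.65, 2.24, 1.57 and 0.36 log2 units above controls. Without Tsc1CKO 4, 22 of the 28 activated genes were called, and with each library left out in turn between 0 and 22.

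Markers of other blood leukocytes were mostly at low levels. Of 16 such genes, 5 had enough reads to be tested; none was called by edgeR with all 7 libraries, and 2 higher and 0 lower without Tsc1CKO 4. Their summed level was 12.3 to 16 CPM in controls and 16.4 to 20.2 CPM in Tsc1CKO. The monocyte receptor Ccr2 lay at 0.276 to 0.817 CPM, and Cd163, a marker of perivascular macrophages, was at 4.93, 5.31, 5.81 and 3.12 CPM in Tsc1CKO and 2.12, 2.28 and 3.14 CPM in controls (log2 fold change 0.93 ± 0.27, edgeR adjusted p = 0.08). None of 17 chemokines and interleukins passed with edgeR, with a median of 1.01, while 8 higher and 2 lower were called without Tsc1CKO 4. Ccl2, a monocyte attractant, was at 0.919, 2.39, 6.41 and 0 CPM in Tsc1CKO and 0, 0.104 and 0 CPM in controls, a ratio of 68.1 (95% counting interval 18.6 to 567) on 2 control reads (log2 fold change 5.83 ± 1.70, edgeR adjusted p = 0.081). Cx3cl1, the neuronal ligand of the microglial receptor, was lower in every knockout library at 565, 454, 519 and 691 CPM in Tsc1CKO and 863, 823 and 1001 CPM in controls, short of the threshold (log2 fold change -0.69 ± 0.16, edgeR adjusted p = 0.0511).

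Complement genes rose at several steps of the cascade. C4b was counted at 265, 173, 178 and 82.4 CPM in Tsc1CKO and 9.08, 21.7 and 8.93 CPM in controls, with all knockout libraries above all controls (log2 fold change 3.72 ± 0.48, edgeR adjusted p = 0.0085); C4b shares reads with a near-identical copy, so its level is uncertain. Of the C1q chains, made by microglia, C1qc (1.44 ± 0.27) and C1qb (1.41 ± 0.29) passed, with edgeR adjusted p of 0.03 and 0.038. C1qa, at 115, 181, 77 and 55.5 CPM in Tsc1CKO and 35.8, 36.4 and 39 CPM in controls, just missed (log2 fold change 1.53 ± 0.36, edgeR adjusted p = 0.0514). C3 was near 1 CPM and was not called (log2 fold change 2.08 ± 0.61, edgeR adjusted p = 0.082). Of 12 components tested, 3 rose, with a median of 1.19. Of 14 receptors and regulators, 5 rose. Clu, clusterin, was at 1576, 1658, 1336 and 1484 CPM in Tsc1CKO and 661, 701 and 685 CPM in controls (log2 fold change 1.15 ± 0.12, edgeR adjusted p = 0.0039). The others included Serping1, the C3a receptor C3ar1 (1.46 ± 0.33) and Cfi. Cfi, factor I, was at 1.93, 0.758, 0.76 and 0.612 CPM in Tsc1CKO 1 to 4 with 1 read over the controls, a ratio of 58.9 (95% counting interval 10.3 to 2356). With each library left out in turn, between 0 and 6 components and between 1 and 8 regulators were called.

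Interferon-stimulated genes were highest in Tsc1CKO 1 and 2. Of 22 tested, 3 rose, all 22 had a positive fold change, and the median was 1.88. Ifit3 was at 50.2, 45.4, 13.7 and 17 CPM in Tsc1CKO and 6.8, 7.99 and 6.94 CPM in controls, with Tsc1CKO 3 and 4 closer to the controls than to Tsc1CKO 1 and 2 (log2 fold change 2.12 ± 0.47, edgeR adjusted p = 0.0462). Rsad2, viperin, was also highest in Tsc1CKO 1 and 2, at 5.17, 3.56, 2.17 and 1.84 CPM in Tsc1CKO and 0.78, 0.727 and 0.661 CPM in controls (log2 fold change 2.14 ± 0.42, edgeR adjusted p = 0.034), as was Lgals3bp at 67.9, 52.8, 31.3 and 24.6 CPM in Tsc1CKO and 7.86, 10.7 and 10.7 CPM in controls (log2 fold change 2.18 ± 0.35, edgeR adjusted p = 0.02). The regulator Irf7 was not called, at 12.1, 12.7, 2.12 and 2.26 CPM in Tsc1CKO and 1.95, 1.3 and 2.26 CPM in controls (log2 fold change 1.99 ± 0.70, edgeR adjusted p = 0.12). As list means, Tsc1CKO 1 to 4 were 2.03, 2.20, 0.46 and 0.65 above the control mean. Without Tsc1CKO 4, 19 of the 22 were called; with each library left out in turn, between 0 and 19.

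Lysosomal genes rose in 9 of 34, with a median of 0.61 and 26 called without Tsc1CKO 4, while 0 of 22 autophagy genes were called by edgeR with all 7 libraries and 2 without Tsc1CKO 4. Neither MHC class I genes (0 of 13) nor class II genes (0 of 7) passed with edgeR and all 7 libraries. Without Tsc1CKO 4, 4 of class I and 1 of class II were higher. B2m, the shared light chain of class I, was at 236, 297, 104 and 109 CPM in Tsc1CKO and 70.4, 92.5 and 86.8 CPM in controls (log2 fold change 1.16 ± 0.37, edgeR adjusted p = 0.1).

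Genes of lipid handling had similar list means in the 4 knockout libraries. Of 28, 9 rose, with a median of 0.58 and list means of 0.67, 0.72, 0.56 and 0.48 in Tsc1CKO 1 to 4. Plin3, which coats lipid droplets, was counted at 29.5, 32.5, 23.1 and 28.4 CPM in Tsc1CKO and 11.4, 10.1 and 9.76 CPM in controls (log2 fold change 1.45 ± 0.15, edgeR adjusted p = 0.0039). The droplet protein Plin2 (1.44 ± 0.25) rose with it, as did Soat1, which esterifies cholesterol (0.78 ± 0.12), and the cholesterol exporter Abca1 (0.91 ± 0.15), with edgeR adjusted p of 0.018 to 0.023. Insig1, a brake on sterol synthesis, was the one called gene of 22 in sterol synthesis and uptake (log2 fold change 0.84 ± 0.15, edgeR adjusted p = 0.027). Without Tsc1CKO 4 that list had 5 higher. With each library left out in turn, between 2 and 14 of the lipid list were called.

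Genes of metal and oxidant defence rose in 5 of 21, with a median of 0.57. Prdx6, a peroxiredoxin abundant in astrocytes, was at 412, 448, 343 and 339 CPM in Tsc1CKO and 159.6, 139 and 152 CPM in controls (log2 fold change 1.36 ± 0.14, edgeR adjusted p = 0.0039). The metallothioneins Mt1 and Mt2, which bind zinc and copper, both rose. Mt1 was at 352, 502, 459 and 227 CPM in Tsc1CKO and 105, 89.2 and 104 CPM in controls (log2 fold change 1.96 ± 0.26, edgeR adjusted p = 0.0094), and Mt2 had a log2 fold change of 2.13 ± 0.28 (edgeR adjusted p = 0.009). Hmox1, heme oxygenase 1 (2.54 ± 0.50), and catalase, Cat (0.58 ± 0.11), rose, with edgeR adjusted p of 0.035 and 0.034. Of 12 iron genes tested, 3 rose, among them both ferritin chains, Ftl1 (0.89 ± 0.17) and Fth1 (0.74 ± 0.16), with edgeR adjusted p of 0.034 and 0.044.

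Serine, folate and asparagine synthesis held 4 rising genes of 20, with a median of 0.53. They were Aldh1l1, its mitochondrial relative Aldh1l2 (1.93 ± 0.28), the serine phosphatase Psph (0.84 ± 0.17) and Cth, which makes cysteine (1.25 ± 0.20), with edgeR adjusted p of 0.013 to 0.038. Of 14 genes of ATF4 and stress regulators 3 rose, Ddit4, Sesn2 and the stress protein Nupr1, which was at 15.4, 35.1, 23.5 and 14.6 CPM in Tsc1CKO and 5.13, 4 and 5.79 CPM in controls (log2 fold change 2.15 ± 0.33, edgeR adjusted p = 0.017). In glycolysis 3 of 23 rose: Aldoc, hexokinase 2, Hk2 (1.14 ± 0.21), and Pdk4, the kinase that turns off pyruvate dehydrogenase (1.16 ± 0.21), with edgeR adjusted p of 0.029 and 0.029. Their list median was 0.30. With each library left out in turn, calls ranged between 0 and 11 for serine and folate, between 0 and 7 for ATF4, between 0 and 11 for glycolysis, between 1 and 10 for metal and oxidant defence and between 0 and 5 for iron.

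Several neuropeptide precursors were high in Tsc1CKO 1 to 3 and at control level in Tsc1CKO 4. Of 22, 3 rose and 1 fell, with a median of 0.90. Npy, neuropeptide Y, was counted at 1329, 1096, 854 and 78.1 CPM in Tsc1CKO and 78.5, 63.5 and 82.1 CPM in controls. Npy in Tsc1CKO 4 lay within the range of the controls (log2 fold change 3.49 ± 0.78, edgeR adjusted p = 0.0484), and without Tsc1CKO 4 the log2 fold change was 3.87 ± 0.20. Penk, the enkephalin precursor, was at 788, 552, 656 and 50.3 CPM in Tsc1CKO and 27.4, 29.4 and 41.3 CPM in controls, with Tsc1CKO 4 just above the controls (log2 fold change 3.97 ± 0.79, edgeR adjusted p = 0.036). Gal, galanin, was at 26.4, 21.4 and 26.6 CPM in Tsc1CKO 1 to 3, at 0.122 CPM in Tsc1CKO 4 and at 1 read in each control, a ratio of 358 (95% counting interval 122 to 1738) (edgeR adjusted p = 0.038).

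Several other precursors were high in the same 3 libraries and did not pass. Adcyap1, the precursor of PACAP, was at 182, 143, 142 and 15.7 CPM in Tsc1CKO and 21.4, 17.1 and 22.1 CPM in controls (log2 fold change 2.58 ± 0.67, edgeR adjusted p = 0.063). Scg2, secretogranin 2, was at 1250.0, 1180.0, 931 and 177 CPM in Tsc1CKO and 248, 269 and 262 CPM in controls (log2 fold change 1.77 ± 0.54, edgeR adjusted p = 0.092). Cck, cholecystokinin, and Sst, somatostatin, had log2 fold changes of 1.07 ± 0.34 and 0.93 ± 0.33 with edgeR adjusted p of 0.099 and 0.12. Vip, vasoactive intestinal peptide, was the member that fell, at 34.3, 39.8, 37.5 and 41.7 CPM in Tsc1CKO and 54.2, 51.7 and 59.6 CPM in controls, and there Tsc1CKO 4 lay with the other knockout libraries (log2 fold change -0.53 ± 0.11, edgeR adjusted p = 0.042). Without Tsc1CKO 4, 14 precursors were called higher and 2 lower, and the higher calls ranged between 0 and 14 with each library left out in turn. None of 24 peptide receptors passed with edgeR, against 4 higher and 3 lower without Tsc1CKO 4.

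Among 12 peptide-processing genes, Cpe and Ecel1 rose and Scg5 fell. Cpe, carboxypeptidase E, was at 4365, 4503, 3863 and 4648 CPM in Tsc1CKO and 1881, 2047 and 1887 CPM in controls, with Tsc1CKO 4 among the other knockout libraries (log2 fold change 1.16 ± 0.12, edgeR adjusted p = 0.0039). Ecel1, an endopeptidase known from injured neurons, was at 188, 131, 186 and 3 CPM in Tsc1CKO and 1.84, 2.65 and 1.71 CPM in controls, far lower in Tsc1CKO 4 than in the other 3 (log2 fold change 5.94 ± 1.20, edgeR adjusted p = 0.038). Scg5, the chaperone of prohormone convertase 2, was at 191, 190.3, 162 and 176 CPM in Tsc1CKO and 261, 360.3 and 242 CPM in controls (log2 fold change -0.68 ± 0.15, edgeR adjusted p = 0.0493). Without Tsc1CKO 4, 3 higher and 6 lower of these 12 were called.

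Genes that neurons raise after axon injury held 4 rising members of 21, with list means of 1.61, 1.65, 1.51 and 0.06 in Tsc1CKO 1 to 4. Besides Ecel1 and Gal, these were Sprr1a and Tubb6. Sprr1a, a small proline-rich protein, was at 31.2, 21.5 and 27.7 CPM in Tsc1CKO 1 to 3 and 0 in Tsc1CKO 4, with 1 read over the controls, a ratio of 1167 (95% counting interval 209 to 46108) (edgeR adjusted p = 0.042). Tubb6, a beta tubulin, was at 10.5, 13.5, 7.33 and 5.38 CPM in Tsc1CKO and 2.56, 3.79 and 2.7 CPM in controls (log2 fold change 1.60 ± 0.33, edgeR adjusted p = 0.039). Atf3, a transcription factor of injured neurons, just missed, at 36.2, 19.5, 20.2 and 1.96 CPM in Tsc1CKO and 0.557, 0.26 and 2.31 CPM in controls (log2 fold change 4.23 ± 0.98, edgeR adjusted p = 0.0514). Gap43, the growth cone protein, lay at 128 to 160.2 CPM (log2 fold change 0.15 ± 0.11, edgeR adjusted p = 0.41). Without Tsc1CKO 4, 10 members were called higher, and between 0 and 10 with each library left out in turn.

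Activity-regulated genes of the rapid class gave no edgeR call among 20, with 1 higher and 2 lower without Tsc1CKO 4. Fos was counted at 291, 148, 10.4 and 76.7 CPM in Tsc1CKO and 133, 109.7 and 119.6 CPM in controls, spread more widely over the knockout libraries than over the controls. Arc was at 759, 389, 69 and 761 CPM in Tsc1CKO and 782, 758 and 1237 CPM in controls. Npas4 was at 287, 53.8, 3.48 and 35.5 CPM in Tsc1CKO and 88.5, 56.6 and 45.4 CPM in controls. For all 3 genes Tsc1CKO 3 was the lowest of the 7 libraries. Slow activity-regulated genes gave no edgeR call among 19 with all 7 libraries, with a median of 0.87, but 9 higher and 2 lower without Tsc1CKO 4 and a median there of 1.11. Bdnf, brain-derived neurotrophic factor, was at 127, 148, 85.2 and 48.1 CPM in Tsc1CKO and 38.1, 38.7 and 66.3 CPM in controls and was not called (log2 fold change 1.10 ± 0.37, edgeR adjusted p = 0.12). Nptx2, a neuronal pentraxin, was at 174, 267, 109.8 and 50.5 CPM in Tsc1CKO and 59.2, 51.1 and 90.2 CPM in controls (log2 fold change 1.17 ± 0.49, edgeR adjusted p = 0.17).

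Subunits of neuronal channels and receptors had mostly negative fold changes, and few passed the test. Of 37 potassium channel subunits, 2 fell and 0 rose, with a median of -0.54; 34 had a negative fold change. Of 8 sodium channel subunits, all with a negative fold change, 1 fell, and the median was -0.55. Scn1a, the sodium channel Nav1.1 of fast-spiking interneurons, was counted at 163, 123, 180.1 and 234 CPM in Tsc1CKO and 340.2, 331 and 337 CPM in controls. Scn1a fell with no overlap, and Tsc1CKO 4 lay between the groups (log2 fold change -0.94 ± 0.19, edgeR adjusted p = 0.039). Kcnv1 was at 96.9, 82.5, 92.1 and 128 CPM in Tsc1CKO and 166, 146 and 170.5 CPM in controls (log2 fold change -0.69 ± 0.16, edgeR adjusted p = 0.0498). Kcns2 was at 21.4, 19.4, 18.1 and 24.7 CPM in Tsc1CKO and 37.4, 36.5 and 28.2 CPM in controls (log2 fold change -0.70 ± 0.15, edgeR adjusted p = 0.042). Both encode subunits that modify other potassium channels. Without Tsc1CKO 4, 24 potassium and 4 sodium channel subunits were called lower, and none higher. With each library left out in turn, potassium channel calls were between 0 and 24.

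Among GABA receptor subunits 1 of 14 fell, with a median of -0.35 and 7 called without Tsc1CKO 4. Glutamate receptor subunits gave 1 of 23, Grin2d (log2 fold change -0.58 ± 0.12, edgeR adjusted p = 0.038), with a median of -0.50, and 0 higher and 11 lower without Tsc1CKO 4. Other receptors and channels that fell included the muscarinic receptor Chrm3 (-0.84 ± 0.18), the serotonin receptor Htr2a (-0.46 ± 0.10) and the calcium channel subunit Cacna2d3 (-0.72 ± 0.15). These had edgeR adjusted p of 0.038 to 0.0484. The pacemaker channel Hcn4 rose instead (log2 fold change 2.20 ± 0.50, edgeR adjusted p = 0.0484).

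Lists of neuronal identity genes gave 0 or 1 call each with all 7 libraries. None of 18 upper-layer genes passed with edgeR, with a median of -0.54, against 1 higher and 11 lower without Tsc1CKO 4. Rorb, of layer 4, was at 55.2, 45.2, 74.9 and 124 CPM in Tsc1CKO and 105, 135 and 125 CPM in controls (log2 fold change -0.71 ± 0.31, edgeR adjusted p = 0.19). Cux2, of the upper layers, was at 108, 106, 179 and 126 CPM in Tsc1CKO and 98.8, 109 and 172 CPM in controls (log2 fold change 0.04 ± 0.24, edgeR adjusted p = 0.93). Of the 18, 2 had a positive fold change, Cux2 and Wfs1. Wfs1, a protein of the endoplasmic reticulum, was at 863, 619, 1054 and 106 CPM in Tsc1CKO and 79.3, 94.3 and 112 CPM in controls, with Tsc1CKO 4 inside the control range (log2 fold change 2.79 ± 0.64, edgeR adjusted p = 0.0508). Of 18 deep-layer genes, Sulf1, a sulfatase that edits heparan sulfate, rose (log2 fold change 1.69 ± 0.31, edgeR adjusted p = 0.03), and the median was -0.55. Without Tsc1CKO 4, 3 higher and 8 lower were called.

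Of 26 interneuron genes tested, 1 fell, Syt2, a synaptotagmin of fast-spiking cells, at 23.6, 12.7, 25.6 and 27.4 CPM in Tsc1CKO and 45.6, 50.8 and 48.1 CPM in controls (log2 fold change -1.11 ± 0.23, edgeR adjusted p = 0.039). Without Tsc1CKO 4, 2 higher and 8 lower were called. The GABA-synthesizing enzymes were not called with all 7 libraries. Gad1 was at 396, 288, 298 and 277 CPM in Tsc1CKO and 386, 374 and 378 CPM in controls (log2 fold change -0.27 ± 0.14, edgeR adjusted p = 0.27). Gad2 was at 429, 304, 337 and 197 CPM in Tsc1CKO and 232, 239 and 235 CPM in controls (log2 fold change 0.43 ± 0.23, edgeR adjusted p = 0.27). Pvalb, parvalbumin, was at 70.2, 68.4, 40.1 and 51 CPM in Tsc1CKO and 70.5, 61.8 and 67.5 CPM in controls (log2 fold change -0.21 ± 0.19, edgeR adjusted p = 0.5). Of 20 pan-neuronal genes none passed with edgeR. Without Tsc1CKO 4, 6 were higher and 5 lower. Syt1, a synaptic vesicle protein, was at 1411, 962, 1491 and 1668 CPM in Tsc1CKO and 2284, 2165 and 2059.5 CPM in controls (log2 fold change -0.65 ± 0.18, edgeR adjusted p = 0.074). Uchl1, a neuronal ubiquitin hydrolase, was at 815, 939.7, 766 and 351 CPM in Tsc1CKO and 408, 348 and 370.1 CPM in controls (log2 fold change 0.94 ± 0.29, edgeR adjusted p = 0.096). None of 16 clock genes was called by edgeR, with a median of -0.39 and 8 lower without Tsc1CKO 4.

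The following lists of other cell types gave 0 or 1 call each, beside 3.36% of all genes tested called higher and 0.42% lower. Lists of this length cannot tell 1 call from that share. Of 22 oligodendrocyte and myelin genes 1 rose, Gsn, the actin-severing protein gelsolin, which other cells also make (log2 fold change 1.72 ± 0.20, edgeR adjusted p = 0.0053), and the median was -0.21. Mbp, myelin basic protein, was at 1663, 1657, 984 and 1419.9 CPM in Tsc1CKO and 1791, 1486 and 1149.5 CPM in controls, with Tsc1CKO 3 the lowest knockout library and Control 3 the lowest control (log2 fold change -0.04 ± 0.22, edgeR adjusted p = 0.91). Endothelial genes gave 1 of 22, the lipid transporter Mfsd2a (log2 fold change 1.14 ± 0.23, edgeR adjusted p = 0.036), pericyte, smooth muscle and fibroblast genes 0 of 16 with edgeR, with or without Tsc1CKO 4, and oligodendrocyte precursor genes 1 of 14, Neu4 (log2 fold change 0.89 ± 0.19, edgeR adjusted p = 0.0455). Without Tsc1CKO 4 there were 1 higher and 1 lower for oligodendrocyte and myelin, 3 higher and 1 lower for endothelial and 3 higher and 0 lower for precursor genes.

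The 15 largest rises among 450 genes that were called, did not overlap and averaged at least 1 on the log2 CPM scale held several genes outside these lists. Rnase1, a secreted ribonuclease, was counted at 21.3, 19, 7.5 and 14.3 CPM in Tsc1CKO and 0.669, 0.779 and 0.551 CPM in controls (log2 fold change 4.53 ± 0.42, edgeR adjusted p = 0.0036). Rtp1, which helps odorant receptors reach the membrane, was at 18, 9.22, 32.9 and 17.2 CPM in Tsc1CKO and 0.557, 0.934 and 0.827 CPM in controls (log2 fold change 4.63 ± 0.48, edgeR adjusted p = 0.0039). Both were high in Tsc1CKO 4 as well. Tmem26, a membrane protein, was at 12.3, 9.16, 14.5 and 0.306 CPM in Tsc1CKO and 0.111, 0.0519 and 0.11 CPM in controls (log2 fold change 6.55 ± 1.28, edgeR adjusted p = 0.035). Tmem40 was at 24.5, 39.6, 24.9 and 1.35 CPM in Tsc1CKO and 1.28, 0.934 and 1.16 CPM in controls (log2 fold change 4.32 ± 0.94, edgeR adjusted p = 0.044). Col5a3, a fibrillar collagen, was at 27.4, 27.1, 40.8 and 2.51 CPM in Tsc1CKO and 1.39, 1.51 and 0.992 CPM in controls (log2 fold change 4.23 ± 0.82, edgeR adjusted p = 0.034). These 3 were near the controls in Tsc1CKO 4. The remainder were the Wnt ligand Wnt9b (4.00 ± 0.85), the protease Prss56 (4.40 ± 0.88), Ly6g6e (4.20 ± 0.86) and the nucleobase transporter Slc43a3 (4.16 ± 0.78), with edgeR adjusted p of 0.032 to 0.042.

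The largest falls among 61 such genes were smaller. Egfl6, a secreted protein with EGF-like repeats, was counted at 0.87, 0.642, 0.543 and 1.59 CPM in Tsc1CKO and 4.18, 3.27 and 3.75 CPM in controls (log2 fold change -2.04 ± 0.36, edgeR adjusted p = 0.025). Rnd1, a small GTPase that loosens the actin cytoskeleton, was at 11.5, 12, 9.94 and 24.7 CPM in Tsc1CKO and 32.5, 34.1 and 47.3 CPM in controls, with Tsc1CKO 4 nearest the controls (log2 fold change -1.39 ± 0.31, edgeR adjusted p = 0.0456). Both genes were lower in every knockout library, which the selection required. Synj2, a phosphoinositide phosphatase, was at 42.8, 35.6, 57.5 and 59.5 CPM in Tsc1CKO and 103, 99.98 and 137 CPM in controls (log2 fold change -1.22 ± 0.20, edgeR adjusted p = 0.022). Unc5b, a netrin receptor, was at 12.2, 9.39, 8.26 and 17.8 CPM in Tsc1CKO and 30.3, 28 and 22.2 CPM in controls (log2 fold change -1.17 ± 0.25, edgeR adjusted p = 0.043). Pcdh20, a protocadherin (-1.36 ± 0.29), fell too, as did the phospholipase Plcb4 (-1.01 ± 0.19), the vesicle-tethering protein Sytl2 (-1.04 ± 0.23) and Ipcef1 (-0.99 ± 0.21), with edgeR adjusted p of 0.032 to 0.0462. A830009L08Rik, Pamr1, Galntl6 and Gm13629, had log2 fold changes between -1.18 and -1.04. Only genes whose groups did not overlap entered this ranking, so by selection no knockout library reached a control in any of them.

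How far Tsc1CKO 4 shared the differences of the other knockout libraries was described gene by gene, with no test. In 1016 genes called without it, with a log2 fold change of at least 1 in size, its log2 CPM was placed on a scale from 0% at the control mean to 100% at the mean of Tsc1CKO 1 to 3. The median position was 28.9%, with quartiles of 8.75% and 54.1%. The genes were chosen by their difference in Tsc1CKO 1 to 3, which tends to place a library left out of that choice below 100%. No other library was placed in this way, so the part of that choice in the low positions was not tested. In 456 genes (44.9%) it lay under 25%, in 442 (43.5%) between 25% and 75% and in 118 (11.6%) at 75% or more, of which 37 reached 100%. For the 732 higher genes the median was 36.7%, and for the 284 lower genes 18.7%, with none at 75% or more. Of the 14929 genes tested in that fit, 13.4% were called higher and 9.8% lower.

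**Figure D3:**
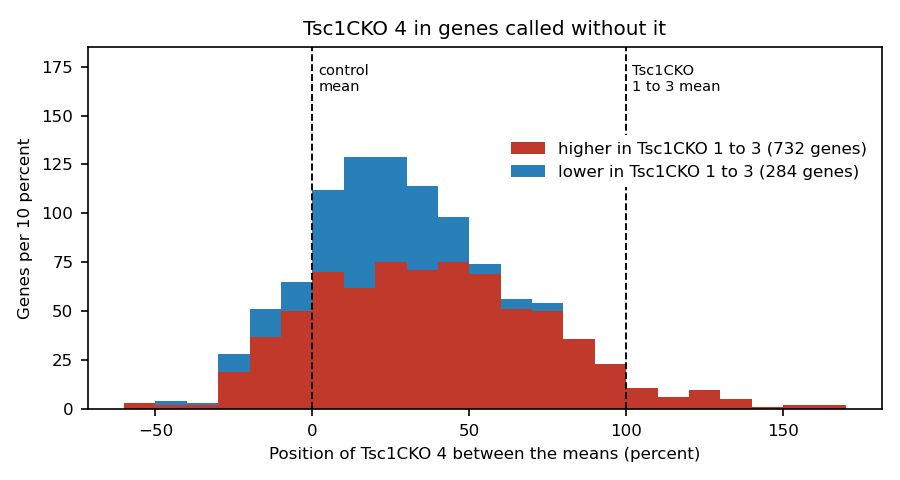
Number of genes by the position of Tsc1CKO 4 on a scale from the control mean (0%) to the mean of Tsc1CKO 1 to 3 (100%), in bins of 10 percent, for 732 genes higher and 284 genes lower in the fit without Tsc1CKO 4. Most genes lie between 0% and 100%, the median is at 28.9%, and all genes at 75% or more are higher ones.

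The genes nearest to the control mean included the cornified envelope genes Lce1g, Lce1f and Crct1. Lce1g was at 17, 18 and 11.2 CPM in Tsc1CKO 1 to 3 and had 0 reads in Tsc1CKO 4 and all controls, at least 221-fold higher over the summed knockout libraries than the 3-read floor of the summed controls; for Lce1f and Crct1 the bounds were 155 and 92.1. Glra1, a glycine receptor subunit, was at 16.9, 8.75, 22.1 and 0.184 CPM in Tsc1CKO and 0.223, 0.156 and 0.165 CPM in controls. Blnk, an adaptor of B cell receptor signalling, was at 55.1, 46.8, 47.4 and 7.71 CPM in Tsc1CKO and 9.42, 7.11 and 6.78 CPM in controls. Ptpn6, a phosphatase of blood cells and microglia, was at 7.2, 11.5, 5.59 and 3.67 CPM in Tsc1CKO and 4.29, 3.63 and 3.14 CPM in controls. The matrix protein Smoc2 was at 36.2, 37.6, 36.2 and 15.5 CPM in Tsc1CKO and 14.8, 14.2 and 17.8 CPM in controls. In each of these 7, Tsc1CKO 4 was inside or at the edge of the control range. Gm1337 went the other way, at 3.05, 2.33, 4.29 and 25.8 CPM in Tsc1CKO and 21.1, 27.4 and 29.2 CPM in controls. The last 2 were Oasl2, an interferon-stimulated gene, at 22.4, 15.1, 2.44 and 2.81 CPM in Tsc1CKO and 2.79, 2.65 and 2.98 CPM in controls, and AU023762.

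The genes farthest along were higher in Tsc1CKO 4 than in the mean of the other 3. Prex2, an activator of the GTPase Rac, was at 369.8, 257, 342 and 516 CPM in Tsc1CKO and 130.5, 183 and 145 CPM in controls, a position of 164%. Padi2, which converts arginine to citrulline in proteins, was at 55.4, 46.3, 49.9 and 82 CPM in Tsc1CKO and 18.2, 20.2 and 8.05 CPM in controls (139%). Acacb, an acetyl-CoA carboxylase, was at 12, 6.65, 14.8 and 16.5 CPM in Tsc1CKO and 5.24, 5.87 and 4.13 CPM in controls (160.2%). The others were Pgm5, Hs3st3a1, Slc24a6, Lmcd1, Pdk4, Txnip and 1200009I06Rik, at 153% to 131%. Txnip, an inhibitor of glucose uptake that is raised by glucose, was at 35.7, 25.3, 42 and 43 CPM in Tsc1CKO and 16.6, 17 and 15.7 CPM in controls (log2 fold change 1.15 ± 0.19, edgeR adjusted p = 0.02).

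Single libraries also differed in other ways. Tsc1CKO 2 held transcripts of pituitary hormones: Gh, growth hormone, was at 2.56, 50.4, 0.163 and 0.184 CPM in Tsc1CKO and 0.892, 0.0519 and 0 CPM in controls and was called in neither fit (log2 fold change 5.40 ± 2.14, edgeR adjusted p = 0.16). Prl, prolactin, was at 1.06, 17.3, 0 and 0 CPM in Tsc1CKO and 0, 0 and 0 CPM in controls. MHC class II genes were high in the same library and, less so, in Control 2. H2-Aa was at 1.55, 62.9, 1.47 and 1.84 CPM in Tsc1CKO and 1.39, 9.55 and 0.937 CPM in controls. Cd74, the chain that escorts class II, was at 8.51, 201, 12.5 and 4.04 CPM in Tsc1CKO and 4.57, 41.1 and 5.73 CPM in controls. Tsc1CKO 3 had the lowest immediate early genes, with list means of 0.32, -0.51, -2.18 and -0.23 in Tsc1CKO 1 to 4 and -0.11, -0.10 and 0.21 in Control 1 to 3. How far these differences in tissue content bear on the genotype comparison was not tested beyond leaving each library out.

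The genotype effect was then compared with that at 4 weeks, in 1 fit of all 17 libraries with an interaction term. Of 15492 genes tested, the effect was more positive at 15 weeks in 27 (0.174%) and more negative in 6 (0.0387%). Without Tsc1CKO 4 the total was 3503 in place of 33, with each other 15-week library left out between 4 and 8, and with each 4-week library left out between 8 and 26. Gfap at 4 weeks was at 222 ± 53.1 CPM in Tsc1CKO and 159.5 ± 51.3 CPM in controls (SD, n = 5 each), a log2 fold change of 0.48 ± 0.28. At 15 weeks it was at 3019 ± 1599 CPM in Tsc1CKO and 114 ± 14.9 CPM in controls (SD, n = 4 and 3), and the difference between ages was 4.23 ± 0.55 on the log2 scale (edgeR adjusted p = 0.004). Penk at 4 weeks was at 28.7 ± 4.32 CPM in Tsc1CKO and 34.8 ± 13.8 CPM in controls (SD, n = 5 each), so that its effect there was -0.27 ± 0.23, and the difference was 4.23 ± 0.80 (edgeR adjusted p = 0.0469).

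Several reactive astrocyte genes were among those whose effect was larger at 15 weeks. The differences were 2.38 ± 0.31 for Osmr, 2.75 ± 0.32 for Ggta1, 3.32 ± 0.58 for Aspg and 2.60 ± 0.48 for Fbln5, with edgeR adjusted p of 0.0037, 0.001, 0.03 and 0.042. Osmr at 4 weeks was at 7.58 ± 0.512 CPM in Tsc1CKO and 6.82 ± 1.84 CPM in controls, with a log2 fold change of 0.15 ± 0.17. Other genes were A2m, a broad protease inhibitor (2.85 ± 0.53, edgeR adjusted p = 0.04), Itih3, a hyaluronan-binding protein (2.56 ± 0.41, 0.017), Gpx3, the secreted glutathione peroxidase (2.52 ± 0.44, 0.031), and Tes, testin (2.82 ± 0.55, 0.043). At 15 weeks Gpx3 was counted at 104, 90.8, 104 and 49.9 CPM in Tsc1CKO and 6.74, 5.87 and 4.46 CPM in controls. Itih3 was at 160.4, 221, 203 and 54.1 CPM in Tsc1CKO and 22.8, 19.99 and 17.6 CPM in controls. A2m was at 22.1, 22.2, 34.7 and 8.99 CPM in Tsc1CKO and 2.17, 1.87 and 1.27 CPM in controls. For all 3 genes every knockout library lay above the controls. Of 13 shared reactive genes tested, 3 were called as more positive at 15 weeks, Gfap, Osmr and Aspg, beside 0.174% of all genes tested. Astrocyte transport and coupling genes gave 0 of 25 with edgeR in this test. A list of this length cannot tell 0 calls from shares of 0.174% and 0.0387%.

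**Figure D4:**
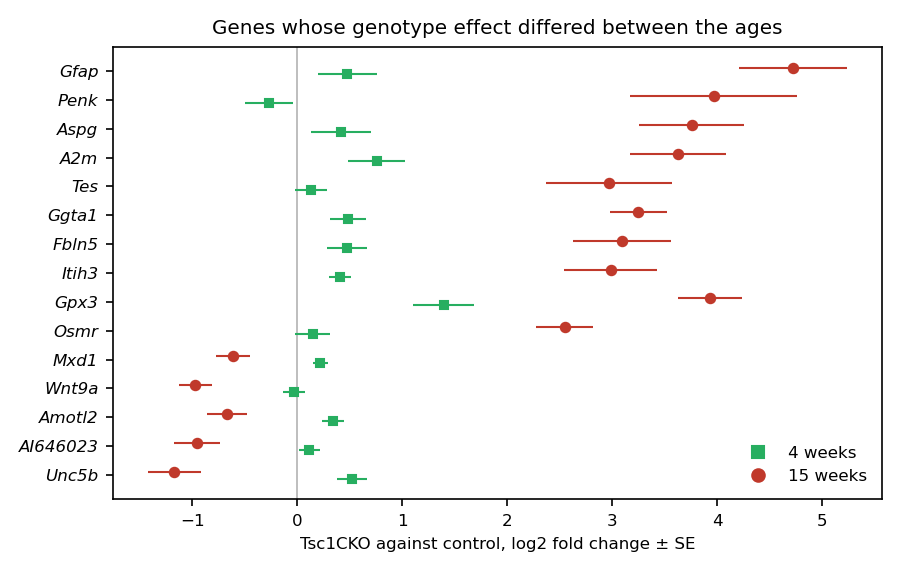
Log2 fold change of Tsc1CKO over controls at 4 weeks and at 15 weeks, with bars of 1 SE, for 15 genes. They are the up to 10 largest differences between ages in each direction, among called genes averaging 1 or more in log2 CPM. Other named genes called for the difference, Sparc and Gsn among them, are not drawn. Effects of the 10 genes above lie near 0 at 4 weeks and between 2 and 5 at 15 weeks; the 5 genes at the bottom have lower values at 15 weeks than at 4 weeks.

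The effect was more negative at 15 weeks for Unc5b, with 18.3 ± 4.1 CPM in Tsc1CKO and 12.7 ± 1.59 CPM in controls at 4 weeks (SD, n = 5 each) and a log2 fold change of 0.52 ± 0.14 there. The difference between ages was -1.72 ± 0.28 (edgeR adjusted p = 0.017). The others named here, which leave out 1 of the 6 called, were AI646023 (-1.09 ± 0.22, edgeR adjusted p = 0.0483), the angiomotin relative Amotl2 (-1.04 ± 0.20, 0.042), the Wnt ligand Wnt9a (-0.97 ± 0.19, 0.042) and Mxd1, an antagonist of Myc (-0.86 ± 0.15, 0.031). Some effects were of like size at both ages, with no call for the difference. Rnase1 had a log2 fold change of 4.15 ± 0.87 at 4 weeks against 4.53 ± 0.42 at 15 weeks, a difference of 0.36 ± 1.19 (edgeR adjusted p = 0.87). Thbs4 had 3.42 ± 0.74 against 3.61 ± 0.62, a difference of 0.17 ± 1.12 (edgeR adjusted p = 0.94), and Amigo2 1.17 ± 0.25 against 1.61 ± 0.25 (0.42 ± 0.38, 0.49).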

How the data were processed

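Poly-A libraries were made from Trizol-extracted RNA (integrity number 9.8 or higher) and read over 100 bases, per the labels' protocols; the kit does not mark strand. The submitters' processing notes name bcl2fastq 1.8.4, Tophat 2.0.4 and the mm9 build. No source used here names the read counter or its annotation. Overlapping, antisense and near-identical genes are therefore uncertain. The authors deposited whole-number counts per gene symbol, with no normalization, for 23284 genes; 25 symbols had turned into dates and 93.1% matched 1 gene. The authors' DESeq2-normalized signal per library, also deposited, served only to check which count column belonged to which library: in 17 of 17 columns the log2 ratio was constant within 0.001.

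Groups were taken from the titles. Genotype was tested on the 7 libraries of 15 weeks with edgeR 4.0.16 in R 4.3.3 (TMM, filterByExpr, robust quasi-likelihood test, Benjamini-Hochberg adjustment at 0.05) and the difference from 4 weeks on all 17 libraries. SE was taken as the absolute log2 fold change over the root of the F statistic. Counting intervals and floors (3 reads, 95%) cover counting error only. Counts of replicate pairs differed by chi-square per degree of freedom of 25 to 95.8 in Tsc1CKO and 9.74 to 13.4 in controls, so none was taken as a repeat. Alternatives were DESeq2 1.42.0, RLE factors, limma 3.58.1 voom with quality weights, other filters, a fit without robust shrinkage, a replicate block, all libraries in 1 fit, library sizes without Rn45s (4.578% to 10.68% of counts) and each library left out. The script was tested on simulated data. The comparison, gene lists and alternatives were chosen with earlier results of these data known. Named genes were Tsc1, Tsc2 and Gfap; the 15 largest rises and falls among called genes whose groups did not overlap and whose log2 CPM averaged 1 or more; up to 6 members per list by smallest p, with marked markers; the 10 genes at each end for Tsc1CKO 4; and up to 10 in each direction for the interaction. Tissue and cell type markers were also named. Promoters are RefSeq, GRCm38.p6. Some genes that the rule selects are not reported here.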

Additional observations from a re-analysis of the deposited data

Results flagged for a closer look

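Of 217 named genes, 23 (10.6%) had a knockout library whose gap to the nearest of the other 3 was large as a share of the 4-library range, a criterion that does not ask how wide that range is and that chance meets in about 1 in 20 groups. In Tsc1CKO 4 these were A830009L08Rik (6.61), Fgfr1 (80.01), Gm1337 (25.8), Grin2d (14.3), Ipcef1 (144), Lgals3 (0.795), Mmp19 (1.22), Pamr1 (40.3), Pcdh20 (25.8), Rnd1 (24.7), Smoc2 (15.5) and Tes (3.06), in CPM. In Tsc1CKO 2 these were Cd74 (201), Cxcl10 (17.2), Gh (50.4), H2-Aa (62.9), Igf1 (15.9), Pdgfc (17.1), Prl (17.3) and Socs3 (14.6), in CPM. In Tsc1CKO 3 these were P2ry12 (35) and Timp4 (33.1), in CPM. In Tsc1CKO 1 these were Cfi (1.93), in CPM. For Timp4 the whole range was narrow, from 32.3 to 33.1 CPM. Some named genes, Smoc2 and Gm1337 among them, were chosen by where Tsc1CKO 4 lay. The share of 10.6% therefore cannot be set against a chance rate.

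For 20 named genes the genotype effect differed between ages by the edgeR interaction test at an adjusted p under 0.05. As log2 fold change at 15 weeks minus that at 4 weeks, the effects more positive at 15 weeks were those of A2m (2.85), Aspg (3.32), Fbln5 (2.60), Gfap (4.23), Ggta1 (2.75), Gpx3 (2.52), Gsn (1.26), Itih3 (2.56), Mmp19 (2.75), Osmr (2.38), Penk (4.23), S100a6 (2.02), Sparc (2.02), Sulf1 (1.63) and Tes (2.82). The effects more negative at 15 weeks were those of AI646023 (-1.09), Amotl2 (-1.04), Mxd1 (-0.86), Unc5b (-1.72) and Wnt9a (-0.97). How these calls respond to leaving out a library is given with the counts for all genes.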

How the results depend on the processing

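With DESeq2, 1388 genes were higher and 728 lower in Tsc1CKO and 1041 differed in effect between ages; with limma voom and quality weights these were 2773, 2400 and 3948. One fit of all 17 libraries gave 1871 higher and 1630 lower. The replicate block gave 1651 higher, 1191 lower and 2717 for the difference between ages, but same-numbered libraries correlated at 0.197, -0.105 and 0.0112, so the numbers were not taken to pair samples. The cause of these shifts was not tested. Without a filter, 19 genes differed between ages. With edgeR and each library left out, higher genes ranged from 39 to 1997, lower genes from 0 to 1463 and differences between ages from 4 to 3503. The fits without Tsc1CKO 4 and with DESeq2 held 565 and 566 of the 567 called genes, and fits without a control held 38 to 47. No called gene named here changed sign under any of the 16 alternatives. RLE factors, the 1 CPM filter, library sizes without Rn45s and the fit without robust shrinkage kept all 3 counts within 1.5 times. A covariate for Y-linked genes was not run, since all 7 libraries express them. Precision is limited by 4 and 3 libraries; Cfi and Mmp12, with 1 control read each, carry wide counting intervals.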

Other observations

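Gene groups outside the main description gave at most 2 calls each with all 7 libraries, beside 3.36% of all genes tested called higher. These lists are short, and in each list with a call the share called higher was above 3.36%. Of 25 ligands, binders and receptors of TGF-beta and bone morphogenetic proteins, 1 rose, the receptor Tgfbr2, at 41.7, 44.1, 39.3 and 28.1 CPM in Tsc1CKO and 22.3, 25 and 22.4 CPM in controls (log2 fold change 0.72 ± 0.16, edgeR adjusted p = 0.0484). Of 15 effectors and targets, 2 rose, among them Id3, an inhibitor of differentiation factors (log2 fold change 1.05 ± 0.21, edgeR adjusted p = 0.037). Among 10 adenosine genes the kinase Adk (0.61 ± 0.13) and the receptor Adora2a (1.34 ± 0.26) rose, with edgeR adjusted p of 0.044 and 0.032. Adora2a was also 1 of 2 called among 7 striatal markers tested; the other was Rgs9, a regulator of G proteins (log2 fold change 0.98 ± 0.16, edgeR adjusted p = 0.022). Of the defining markers of striatum, the dopamine receptor Drd2 lay at 0.856 to 1.46 CPM and was not called by edgeR, and Ppp1r1b was at 117, 164, 97.7 and 68.1 CPM in Tsc1CKO and 56.6, 57.5 and 56.4 CPM in controls (log2 fold change 0.97 ± 0.26, edgeR adjusted p = 0.066). The part of striatal tissue in these values was not tested.

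Growth factors gave 2 of 22, Pdgfc (0.85 ± 0.14) and progranulin, Grn (0.99 ± 0.23), with edgeR adjusted p of 0.02 and 0.0493. Growth factor receptors gave 1 of 25, Fgfr1 (log2 fold change 0.53 ± 0.12, edgeR adjusted p = 0.0484). Cell cycle genes gave 2 of 21, Ccnd1 (1.10 ± 0.21) and Cdk1 (4.06 ± 0.74), with edgeR adjusted p of 0.034 and 0.029. None of 17 Eph receptors and ephrins was called by edgeR, with 5 lower without Tsc1CKO 4. Cdk1, a mitotic kinase, was at 3.19, 2.92, 3.42 and 0.551 CPM in Tsc1CKO and 0.223, 0.0519 and 0.165 CPM in controls, so its level was low and lowest of the knockout libraries in Tsc1CKO 4. Without Tsc1CKO 4 there were 7 higher and 2 lower and 4 higher and 1 lower for the TGF-beta lists, 3 higher and 1 lower for adenosine, 3 higher and 1 lower for striatum, 5 higher and 2 lower for growth factors, 7 higher and 3 lower for their receptors and 6 higher and 1 lower for cell cycle. With each 15-week library left out in turn, between 0 and 7 members of any of these lists were called higher. Of 8 hippocampal markers none was called by edgeR with all 7 libraries, and 3 higher and 2 lower without Tsc1CKO 4; 5 had a positive fold change, the median was 0.65 and their summed level was 144 to 1122 CPM in Tsc1CKO and 120.04 to 164 CPM in controls. They include Wfs1. Dsp, desmoplakin, was at 36.5, 5.95, 23.1 and 1.41 CPM in Tsc1CKO and 0.947, 0.727 and 0.717 CPM in controls (log2 fold change 4.39 ± 1.04, edgeR adjusted p = 0.0534), and Prox1 was at 5.56, 3.44, 7.33 and 9.79 CPM in Tsc1CKO and 10.9, 12.5 and 10.4 CPM in controls (log2 fold change -0.79 ± 0.30, edgeR adjusted p = 0.15).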
